A study of Homo sapiens with 24 samples.

Results

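The clustered protocadherins are a family of cell-surface adhesion proteins encoded by 3 neighbouring gene clusters, alpha, beta and gamma, on human chromosome 5. Their genes were taken from the deposited count tables by symbol (PCDHA, PCDHAC, PCDHB, PCDHGA, PCDHGB or PCDHGC followed by a number), which gave 56 of 60658 genes: 16 in the alpha cluster, 18 in the beta cluster and 22 in the gamma cluster. All 56 lie on the plus strand of chromosome 5 in hg19, from position 140165721 (PCDHA1) to 140892548 (PCDHGA1).

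The study depleted the circular RNA ciRS-7 in cells labelled SH-SY5Y, a neuroblastoma line, and asked how specific 4 ways of depletion were. Each setup had 3 libraries with the depletion (KD) and 3 with a non-targeting control (NTC), giving 8 groups and 24 libraries of poly(A)-selected RNA collected 48 h after transfection. In the agoshRNA setup, KD and NTC cells received a vector for an Argonaute-processed hairpin. In the gRNA and pre-gRNA setups, both arms received 1 plasmid for the RNA-cutting nuclease CasRx fused to GFP and a second plasmid for the mature or the precursor guide. For syn-gRNA, the series title speaks of chemically made guides, and the labels do not describe their delivery. Nothing in the labels says that the 3 libraries of a group came from separate cultures, so p-values measure the spread between these libraries, which may be technical. The tables distinguish the libraries of a group by a letter (A, B or C), which is used here after setup and arm to name a library.

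Clustered protocadherins give neurons a surface code: a cell uses a small choice of isoforms, and matching isoforms on 2 membranes bind each other. In the alpha and gamma clusters each gene has its own promoter and a large first exon that encodes the extracellular and transmembrane part, and this exon is spliced to short constant exons that encode a cytoplasmic end common to the whole cluster. Beta genes are single-exon genes with no constant part, and the C-type isoforms (PCDHAC1, PCDHAC2, PCDHGC3, PCDHGC4 and PCDHGC5) are known for a more general expression in neurons than the stochastically chosen ones.

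The sequences at the splice junction show why reads in the constant exons cannot be given to 1 gene. The last 15 bases of a gene's own exon are in lower case and the first 15 bases of the constant exon are in capitals, 5′ to 3′ on the plus strand, from the GENCODE release 29 transcripts on GRCh38. The gamma genes shown are the 3 with most reads of their own, followed by PCDHGB5, which had none, and the alpha genes are PCDHA10, the alpha gene with most reads, and PCDHAC2, a C-type gene.
PCDHGA11: ccgacaagtaatcagCAAGCCCCGCCCAAC
PCDHGC4: ctctatgggctagagCAAGCCCCGCCCAAC
PCDHGC3: gcccctcccggacagCAAGCCCCGCCCAAC
PCDHGB5: tcccatcctgagttgCAAGCCCCGCCCAAC
PCDHA10: gaccactctaggaagCCACGACAGCCCAAC
PCDHAC2: gtttctcaaaatgagCCACGACAGCCCAAC
The 22 gamma genes had 22 different own stretches and 1 shared stretch, and the 15 alpha genes with constant exons had 15 own stretches and 1 shared stretch. The first constant exon of 59 bases and the second of 89 bases are followed by a longer last exon, so that 2181 bases are common to all gamma genes and 2866 bases to the 15 alpha genes. On GRCh38 the printed own stretch of PCDHGA11 is at chr5:141423646-141423660, that of PCDHGC4 at chr5:141487601-141487615, and the shared gamma stretch at chr5:141494807-141494821.

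Total counts per library ranged from 10994974 to 16233777. Among 12 noradrenergic neuroblastoma markers, 4 (GATA2, TBX2, HAND1 and CHRNA3) averaged more than 10 CPM (the usual scaling of a count to its library's total). The summed level of the 12 ran from 60.4 to 138 CPM, and PHOX2A, TH and DBH had at most 5, 1 and 2 counts in any library. Of 10 kidney-lineage markers, 7 averaged more than 10 CPM (summed level 167 to 457 CPM), while PAX8, LHX1 and WT1 did not. Of 8 mesenchymal neuroblastoma markers, 5 averaged more than 10 CPM (summed level 832 to 1220 CPM). VIM alone had 733 to 1053 CPM, and PRRX1, MEOX1 and CD44 averaged 1.77, 0.33 and 0.086 CPM. The levels below therefore belong to the cells labelled SH-SY5Y, in which some but not all of the listed noradrenergic markers were at or near 0. LINC00632, the linear host transcript of ciRS-7, had 16 to 132 counts per library and group means from 3.11 to 7.51 CPM.

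The 22 gamma genes appeared at nearly 1 level in every library. Their counts were equal to the lowest gamma count of the library in 301 of 528 gene-by-library values (57.0%), and within 1 count of it in 401 (75.9%). PCDHGA2, for example, had 998 counts over the 24 libraries, PCDHGA3 990, PCDHGB5 988 and PCDHGC5 1000. The lowest gamma count of each library was therefore taken as the number of reads in the exons that all gamma genes share ("shared reads"), and what a gene had above it as its own counts. Shared reads so defined are an upper bound, since PCDHGB5, the gene at the lowest count in each library, may have reads of its own.

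**Figure D1:**
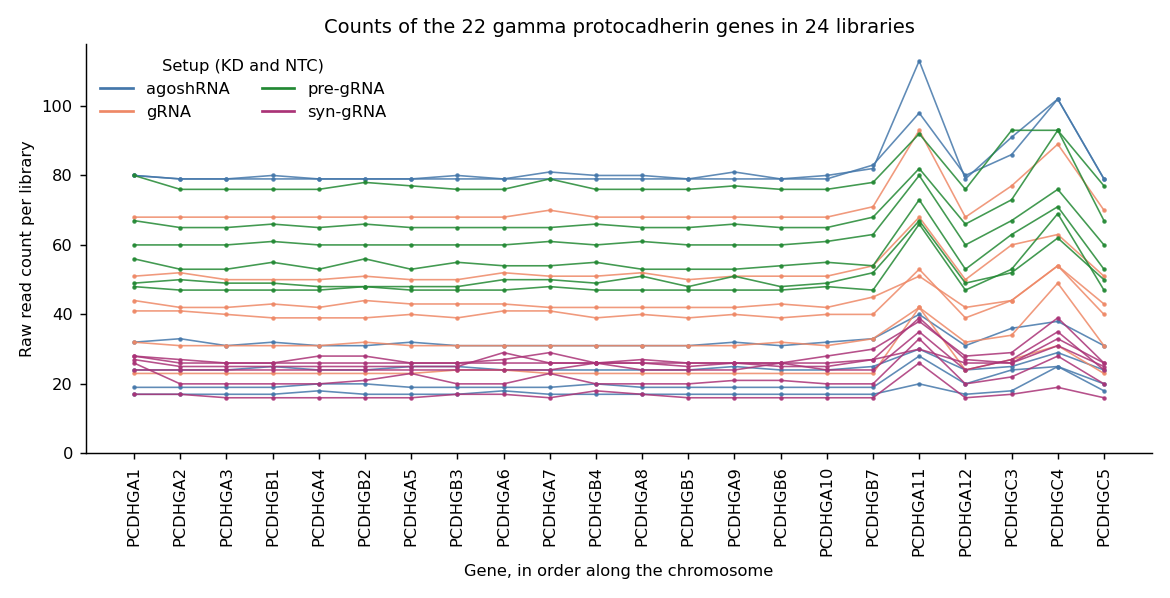
Raw read count (vertical axis) of each of the 22 gamma genes in chromosomal order (horizontal axis), with 1 line per library coloured by setup. Each line is nearly flat at its library's lowest count, from 16 to 79, and rises at PCDHGA11, PCDHGC3 and PCDHGC4.

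The choice of quantity decides how many isoform genes look active. With at least 10 counts in each of the 24 libraries as the criterion, 22 of the 56 genes were on, which were the 22 gamma genes. With own counts the same criterion gave 0 genes, and at least 10 own counts in at least 3 libraries gave 4, namely PCDHGA11, PCDHGC4, PCDHGC3 and PCDHA10. The origin of the PCDHA10 reads is uncertain, as described below. At least 1 own count in each library was found for 3 genes, PCDHGA11, PCDHGC4 and PCDHB2. With shared reads counted once, the gamma counts came to 2032, of which 988 were shared and 1044 (51.4%) were own counts. A read in exons common to some but not all gamma genes would enter the own counts of each of them. Such overlap between members was not tested. Summing the 22 genes as deposited gave 22780, which is 11.2 times as many.

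Among the gamma genes, own reads were concentrated in 3 genes. PCDHGA11, an A-type isoform gene (hg19 chr5:140800614-140892546), had 351 own counts in all. PCDHGC4 (hg19 chr5:140864564-140892546) had 322 and PCDHGC3 (hg19 chr5:140855514-140892546) had 126, both C-type. Together these 3 held 799 own counts, 76.5% of the gamma total, and the other 19 genes had 0 to 43 each. By type, the 12 A genes had 491, the 7 B genes 93 and the 3 C genes 460. The third C-type gene, PCDHGC5, had 12 own counts in all and at most 2 in a library, and PCDHGB7, the fourth of the gamma genes, had 43 and at most 4.

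**Figure D2:**
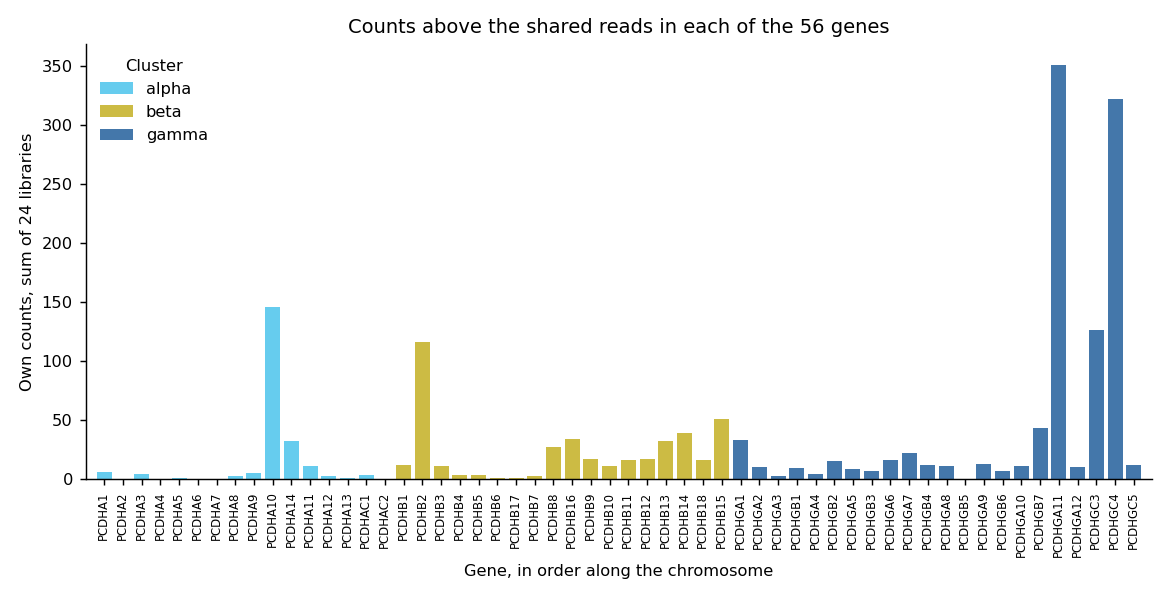
Own counts (counts above the shared reads, summed over the 24 libraries, vertical axis from 0) of the 56 genes in chromosomal order, coloured by cluster. The tallest bars are PCDHGA11 (351), PCDHGC4 (322), PCDHA10 (146), PCDHGC3 (126) and PCDHB2 (116).

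Per length, the shared gamma exons were the most densely covered. Their density was 1.33 ± 0.647 RPKM (CPM per kilobase of exon, mean and SD over 24 libraries). On the same scale the own exons of PCDHGC4 had 0.338 ± 0.164, those of PCDHGA11 0.286 ± 0.134 and those of PCDHGC3 0.112 ± 0.0835 RPKM, so that PCDHGC4 and PCDHGA11 differed by less than their spread between libraries. PCDHGB7 followed with 0.0447 ± 0.0376 RPKM. The densities of the 22 own exon sets added up to 0.95 RPKM, 0.716 of the shared density, of which PCDHGC4 held 35.6%, PCDHGA11 30.1% and PCDHGC3 11.8%. Each such value rests on few reads, and its SD takes in differences between setups and arms. The counting intervals given further below cover counting error only.

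PCDHGA11 had own reads in every library. In the agoshRNA setup it had 34, 6 and 3 own counts in KD A, B and C and 19, 9 and 9 in NTC. In the gRNA setup it had 25, 11 and 14 in KD and 18, 19 and 9 in NTC. In the pre-gRNA setup it had 17, 20 and 19 in KD and 16, 19 and 20 in NTC. The syn-gRNA libraries had 13, 11 and 10 in KD and 4, 14 and 12 in NTC, and KD and NTC overlapped in all 4 setups.

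PCDHGC4 gave a similar picture. Its own counts were 23, 5 and 8 in agoshRNA KD A, B and C and 23, 7 and 6 in NTC. They were 21, 18 and 15 in gRNA KD against 13, 8 and 12 in NTC. The gRNA setup is the 1 in which the KD and NTC raw own counts did not overlap. The share of all genes whose arms do not overlap in that setup was not counted. In DESeq2 the own-count difference in gRNA was 0.85 (log2, SE 0.56) with an adjusted p of 1 (share of all genes called in that setup, 0.0%). The pre-gRNA libraries had 28, 16 and 14 in KD and 17, 22 and 18 in NTC, and the syn-gRNA libraries had 8, 11 and 3 in KD and 7, 6 and 13 in NTC. PCDHGC3 had 0 to 3 own counts in the 6 syn-gRNA libraries (2, 3 and 1 in KD, 0, 1 and 3 in NTC) and 1 to 17 in the other 18, among them 8, 7 and 4 in pre-gRNA KD and 17, 6 and 10 in pre-gRNA NTC. Scaled to depth, 14 of those 18 libraries had a higher PCDHGC3 own level than any syn-gRNA library, against 13 for PCDHGC4 and 10 for PCDHGA11. The same count over all genes was not made.

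**Figure D3:**
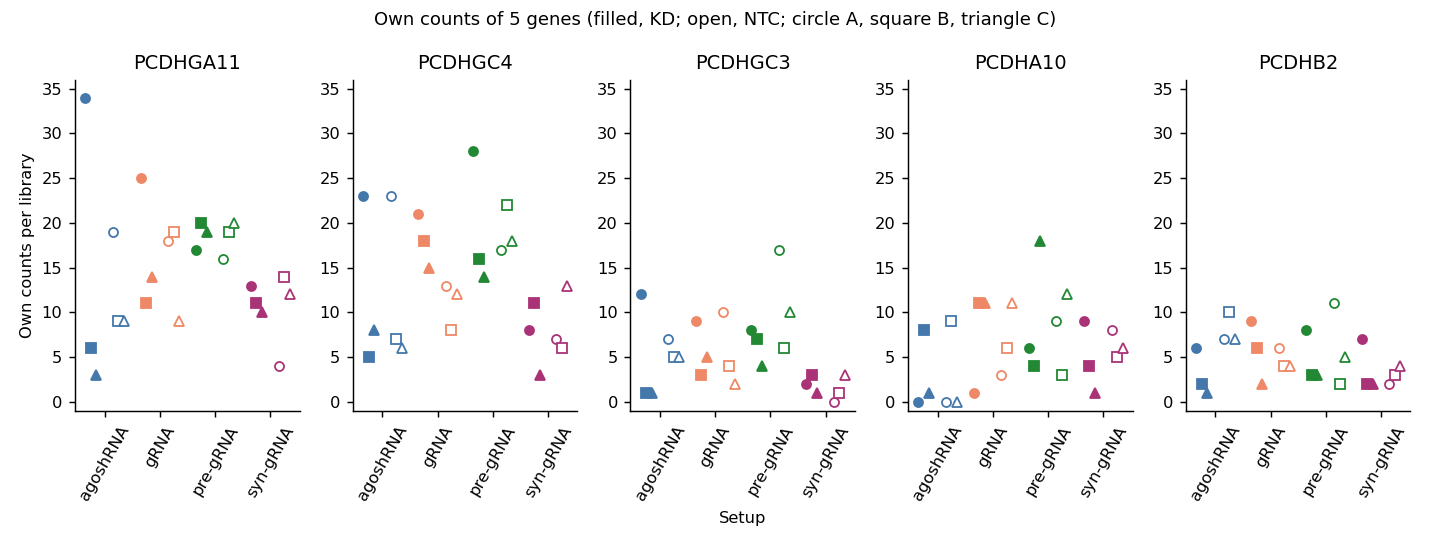
Own counts per library (vertical axis) of PCDHGA11, PCDHGC4, PCDHGC3, PCDHA10 and PCDHB2, by setup; filled symbols are KD, open symbols NTC, and the shape gives the letter of the library. PCDHGA11 and PCDHGC4 reach 34 and 28, PCDHGC3 stays at 0 to 3 in syn-gRNA, and PCDHA10 is at 0 or 1 in 4 of the 6 agoshRNA libraries.

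The alpha cluster was almost silent. Its shared reads numbered 0 in 21 of the 24 libraries, 1 in 2 libraries and 3 in 1 (pre-gRNA NTC C), and a count of 0 in a library allows up to 3 reads. PCDHA10 held 146 of the 181 own alpha counts, with 0 to 18 per library and a mean of 0.436 ± 0.333 CPM (SD over 24 libraries). It had 0, 8 and 1 own counts in agoshRNA KD A, B and C and 0, 9 and 0 in NTC, so that only the B libraries of that setup had more than 1. It had 1, 11 and 11 in gRNA KD, 3, 6 and 11 in gRNA NTC, 6, 4 and 18 in pre-gRNA KD and 9, 3 and 12 in pre-gRNA NTC. In the syn-gRNA setup it had 9, 4 and 1 in KD and 8, 5 and 6 in NTC.

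The reads of PCDHA10 are hard to place within the gene. Its own exons cover 12358 bases, among them the whole of PCDHA14, a listed pseudogene with 32 counts, which never exceeded those of PCDHA10 in any of the 24 libraries. The antisense gene AC005609.1 (38 counts) covers the same stretch, from 140240341 to 140243224 on the minus strand in hg19. The libraries carry no strand, so reads of these 3 genes cannot be told apart. Per length, the own exons of PCDHA10 had 0.0342 ± 0.0255 RPKM and the shared alpha exons 0.00482 ± 0.0150 RPKM (mean and SD over 24 libraries). In the gamma cluster the shared exons were the denser ones. Whether the PCDHA10 reads come from transcripts spliced to the constant exons was not tested. The other 14 alpha genes had 35 own counts in all, with 11 for PCDHA11 and 6 for PCDHA1, and PCDHA2, PCDHA4, PCDHA6, PCDHA7 and PCDHAC2 had 0. PCDHAC1 had 3.

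Beta genes were counted at a low level with no shared part. Their sum was 5 to 29 counts per library (409 in all), and each of the 18 genes was counted at least once. PCDHB2 led with 116 counts (28.4% of the beta total, 1 to 11 per library, 0.343 ± 0.194 CPM, SD over 24 libraries), followed by PCDHB15 with 51, PCDHB14 with 39 and PCDHB16 with 34. The remaining beta genes had 1 to 32 counts. In agoshRNA, PCDHB2 had 6, 2 and 1 counts in KD A, B and C and 7, 10 and 7 in NTC, which did not overlap. It had 9, 6 and 2 in gRNA KD, 6, 4 and 4 in gRNA NTC, 8, 3 and 3 in pre-gRNA KD and 11, 2 and 5 in pre-gRNA NTC. In syn-gRNA it had 7, 2 and 2 in KD and 2, 3 and 4 in NTC, and in these 3 setups the arms overlapped. Its counts were too low for the tests below. Of the genes that were tested in agoshRNA, DESeq2 called 0.0%, and 0.0% had an unadjusted p under 0.05. How many of all genes do not overlap between the arms was not counted. Of the exons of PCDHB2, 620 bases overlap the antisense gene CTC-270D5.1 (47 counts), so its reads are uncertain. In the GENCODE release 29 exons on GRCh38, no annotated gene outside the family overlapped the own exons of PCDHGA11, PCDHGC4 or PCDHGC3. That check did not return AC005609.1 for PCDHA10, so it can miss overlaps in the hg19 annotation that was counted.

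The first comparison was KD against NTC within a setup. Of the 56 genes, 23 had enough counts to be tested in the gRNA setup (10 or more counts in 3 or more of its 6 libraries), and 22 in each of the other setups. These were the gamma genes and, in the gRNA setup, PCDHA10. Because the gamma genes share most reads, they are close to 1 measurement and not 22. DESeq2 called 0 of them at an adjusted p under 0.05 in each setup, where the share of all tested genes called was 0.0% as well, and 0 had an unadjusted p under 0.05. edgeR gave the same 2 counts of 0 in each setup.

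The median log2 difference of the tested family genes was -0.08 in agoshRNA, 0.42 in gRNA, 0.02 in pre-gRNA and -0.14 in syn-gRNA, beside 0.06, 0.02, 0.01 and 0.00 over all genes tested. Their median standard errors were 0.71, 0.49, 0.41 and 0.40. For PCDHGA11 the 95% interval of the log2 difference ran from -1.43 to 1.39 in agoshRNA, from -0.51 to 1.29 in gRNA, from -0.74 to 0.80 in pre-gRNA and from -0.66 to 0.72 in syn-gRNA. These unpaired fits do not exclude changes up to about those bounds. The bounds are not a detection limit, because calls were made after adjustment over all genes. With the library letter added to the model as a block, the median standard errors were 0.40 in agoshRNA, 0.38 in gRNA, 0.29 in pre-gRNA and 0.45 in syn-gRNA. In the authors' deposited table the gamma genes had log2 fold changes from -0.13 to -0.04 in agoshRNA, from 0.32 to 0.48 in gRNA, from -0.05 to 0.10 in pre-gRNA and from -0.27 to 0.01 in syn-gRNA. The smallest p-value of a family gene in the authors' deposited tables was 0.0447, for PCDHB2 in agoshRNA (log2 fold change -1.54), with an adjusted p of 1 in DESeq2.

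Scaled to depth, the beta sum in agoshRNA was lower in all 3 KD libraries than in all 3 NTC libraries. It was picked out as the only total, among all clusters and setups, that separated the arms. Summed beta counts in agoshRNA were 15, 19 and 9 in KD A, B and C and 19, 29 and 18 in NTC, or 1.08 ± 0.298 CPM against 1.60 ± 0.263 CPM (SD, n = 3). The raw sums overlapped, and after scaling KD B (1.37 CPM) lay just below NTC A (1.44 CPM). PCDHB2 alone held 6, 2 and 1 of these counts in KD and 7, 10 and 7 in NTC. PCDHB2 made up 2 of 19 beta counts in KD B, 7 of 19 in NTC A and 7 of 18 in NTC C. Without PCDHB2, KD B lay above NTC A and NTC C, raw and scaled, so the arms overlapped. The sum without PCDHB2 was not tested. For the whole beta sum, the difference of mean log2 CPM was -0.43, larger than the SD within either arm (at most 0.28). The exact two-sided permutation p was 0.1, the smallest that 3 against 3 libraries can give, so this design cannot reach 0.05. The arms of the other 3 setups overlapped. In gRNA the sums were 13, 13 and 15 in KD and 20, 13 and 23 in NTC, a difference of -0.28 with an exact permutation p of 0.2. In pre-gRNA they were 27, 10 and 25 against 28, 5 and 22 (0.22, exact permutation p 0.6), and in syn-gRNA 21, 13 and 7 against 16, 12 and 17 (0.01, exact permutation p 1). Fewer cells with such transcripts and less RNA per cell cannot be told apart in bulk samples.

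For the gamma cluster, with each shared read counted once, the totals were 154, 41 and 32 in agoshRNA KD and 141, 61 and 44 in NTC. They were 130, 69 and 88 in gRNA KD and 109, 57 and 78 in NTC, and 130, 110 and 109 in pre-gRNA KD and 140, 98 and 119 in NTC. The syn-gRNA libraries had 58, 53 and 37 in KD and 40, 60 and 74 in NTC. The log2 differences were -0.22, 0.24, 0.03 and 0.02, with exact permutation p-values of 0.6, 0.5, 1 and 1. Compared within letters, the gRNA differences were 0.37, 0.26 and 0.14 in A, B and C, all above 0, while the other setups had both signs. As deposited, with shared reads counted for each gene, the differences were -0.14, 0.27, 0.04 and -0.13 with exact permutation p-values of 0.7, 0.6, 0.9 and 0.4, so the sign in syn-gRNA rested on how shared reads were counted. For the alpha cluster, with shared reads counted once, the totals differed by 0.025, -0.16, -0.048 and -0.093, with exact permutation p-values of 0.7, 0.8, 1 and 0.8. The deposited alpha sums, which count a shared read for each gene, differed by -0.03, -0.12, -0.19 and -0.41 (exact permutation p 0.8, 0.8, 0.7 and 0.4).

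**Figure D4:**
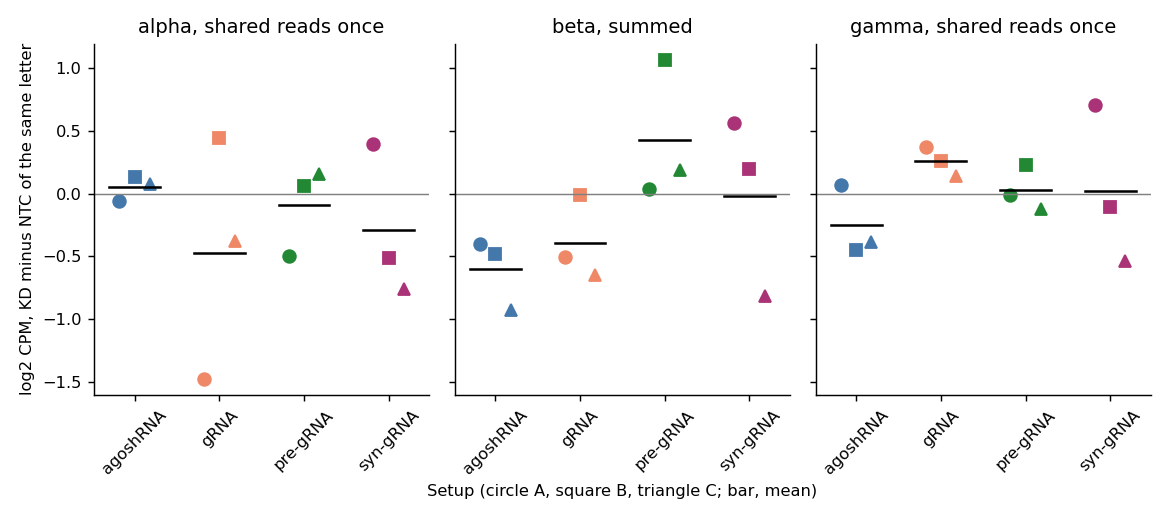
Difference of log2 CPM between the KD and NTC library of the same letter (vertical axis) in each setup, for the alpha, beta and gamma totals with shared reads counted once; symbols give the letter and bars the mean of the 3. Beta differences lie below 0 in agoshRNA and gRNA and above 0 in pre-gRNA, where the symbols nearest 0 are gRNA B (-0.02) and pre-gRNA A (0.04).

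The second comparison was between setups, separately in the NTC and in the KD libraries. Setups differ in agent and delivery and may differ in batch, and these cannot be told apart. The shared gamma reads were lowest and most even in the syn-gRNA setup: 20, 24 and 16 reads in KD A, B and C and 26, 25 and 26 in NTC, which is 1.46 to 1.89 CPM. The other 18 libraries ranged from 1.46 to 6.00 CPM with a median of 3.09, and 14 of them lay above the highest syn-gRNA library. The pre-gRNA setup had 4.27, 3.92 and 3.08 CPM in KD and 4.68, 2.94 and 3.40 CPM in NTC, all 6 above all 6 syn-gRNA libraries. How many of all genes separate these setups in this way was not counted. In DESeq2, 17.8% of all tested genes in NTC and 14.8% in KD had an unadjusted p under 0.05 in this pair. Within agoshRNA the A libraries stood apart, with 79 shared reads in KD A (5.76 CPM, 95% counting interval 62.5 to 98.5 reads) and 79 in NTC A (6.00 CPM). The B and C libraries of agoshRNA had 17 to 31 reads (1.46 to 2.04 CPM).

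**Figure D5:**
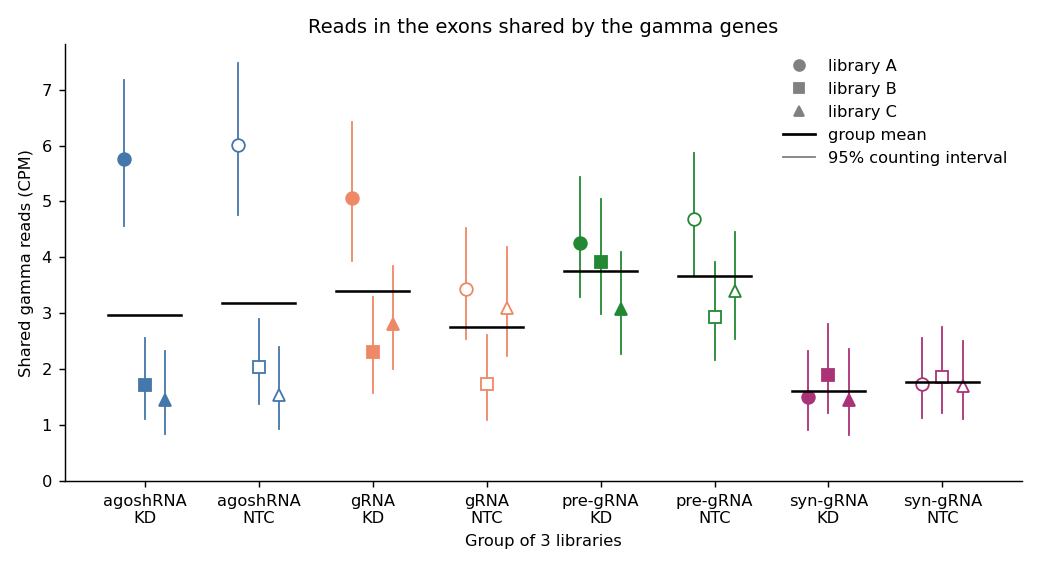
Shared gamma reads in CPM (vertical axis from 0) of each library, by group; filled symbols are KD, open symbols NTC, shapes give the letter, black bars the group mean and thin lines the 95% counting interval. The syn-gRNA libraries sit between 1.46 and 1.89 CPM and the pre-gRNA libraries between 2.94 and 4.68 CPM.

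Between pre-gRNA and syn-gRNA NTC, 23 family genes were tested and all 23 had a higher fitted level in pre-gRNA, with a median log2 difference of 1.00 (all genes tested, 0.04). DESeq2 called 0 of them at an adjusted p under 0.05, where 3.25% of all tested genes were called. The smallest adjusted p was 0.164, for PCDHGC3 (log2 difference 1.18, SE 0.49). An unadjusted p under 0.05 was reached by 18 of the 23, beside 17.8% of all genes tested, and by 15 in edgeR, which called 0. The KD libraries, which are other libraries of the same setups, gave a median of 1.14 (all genes, 0.06), 0 called of 23 where 2.52% of all genes were called, a smallest adjusted p of 0.19, and 21 genes at an unadjusted p under 0.05 beside 14.8% of all genes. These counts repeat the same shared reads many times.

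Counted once, the shared gamma reads were higher in pre-gRNA than in syn-gRNA by 1.01 (log2, SE 0.49, adjusted p 0.246 in DESeq2) in NTC and by 1.16 (SE 0.49, adjusted p 0.226) in KD. Own counts of PCDHGC3 were higher by 2.84 (SE 0.97, adjusted p 0.0768 in DESeq2) in NTC and by 1.29 (SE 0.90, adjusted p 0.54) in KD. Own counts of PCDHGC4 gave 1.00 (SE 0.56) and 1.01 (SE 0.58), and those of PCDHGA11 0.70 (SE 0.61) and 0.35 (SE 0.61), with adjusted p-values from 0.335 to 0.838 in DESeq2. In a DESeq2 fit of the 6 NTC libraries of this pair alone, deposited counts of PCDHGC3 passed the threshold (log2 difference 1.18, adjusted p 0.0415), where 7.05% of 18709 genes were called. The same fit of the 6 KD libraries called 0, with a smallest adjusted p of 0.084.

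The other pairs of setups gave no call. Against syn-gRNA the median log2 difference of the tested family genes was 0.76 for agoshRNA NTC and 0.82 for agoshRNA KD, where DESeq2 called 1.84% and 3.14% of all genes. It was 0.47 for gRNA NTC and 1.03 for gRNA KD, where 1.32% and 1.58% were called. In gRNA KD against syn-gRNA KD, 19 of 23 had an unadjusted p under 0.05 (13.4% of all genes), and 0 of 23 in the gRNA NTC pair and in both agoshRNA pairs. Among the agoshRNA, gRNA and pre-gRNA groups, DESeq2 called 0 family genes, and 0 had an unadjusted p under 0.05, in the 3 NTC pairs (0.0496, 0.0347 and 0.0% of all genes called) and in the 3 KD pairs (0.0446, 0.0446 and 0.0%). The difference of the KD effect between 2 setups, tested in the model of all 24 libraries, gave 0 calls and 0 unadjusted p-values under 0.05 among the 23 genes in each of the 6 pairs, with 0.0% of all genes called.

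For PCDHA10 the differences between setups were imprecise. Its fitted log2 difference to syn-gRNA was -1.09 in agoshRNA NTC (SE 1.07, 95% interval -3.19 to 1.01) and -0.65 in agoshRNA KD (SE 1.09, -2.79 to 1.49), and these intervals contain the medians of 0.76 and 0.82 given above. In pre-gRNA it was 0.21 (SE 1.00) in NTC and 0.67 (SE 1.02) in KD. None passed the threshold, the smallest adjusted p among these 4 being 0.816 in DESeq2, and 4 of the 6 agoshRNA libraries had 0 or 1 own counts.

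Other properties of the libraries also varied, in part alongside the gamma level, and their part in it was not tested. The nuclear RNA MALAT1 was at 81.2 and 108 CPM in agoshRNA KD A and NTC A, the 2 libraries with the highest shared gamma CPM, and at 1277 to 2995 CPM in the 6 syn-gRNA libraries. It was at 628, 583 and 577 CPM in agoshRNA KD C, gRNA NTC B and pre-gRNA KD C, which had 1.46, 1.74 and 3.08 CPM of shared gamma reads. The mean GC content of counted genes ranged from 47.3 to 52.3% over all libraries, with 52.2 and 51.3% in agoshRNA KD A and NTC A and 48.2 to 49.2% in syn-gRNA. The relation of MALAT1 or GC content to the gamma level was not tested. The highest GC content, 52.3%, was in pre-gRNA NTC B, at 2.94 CPM of shared gamma reads. AgoshRNA KD C had 50.4% at 1.46 CPM. Both pre-gRNA KD C (47.9%, 3.08 CPM) and gRNA NTC C (47.8%, 3.10 CPM) lay below the syn-gRNA range of GC content. The shared gamma exons have a GC content of 56.5% and the shared alpha exons 40.3%. Libraries of the same letter also went together: the KD and NTC libraries of agoshRNA differed in shared gamma level by 0.13 (mean absolute log2) with the same letter and by 1.32 with other letters. The gap was smaller in the other setups, with 0.37 against 0.70 in gRNA, 0.23 against 0.33 in pre-gRNA and 0.15 against 0.23 in syn-gRNA.

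Genes that act on or around the family were listed in 4 groups. Of 25 regulators of chromatin and cohesin, 24 had a mean above 10 CPM. CTCF, the factor whose binding at promoters and enhancer guides isoform choice, had 29.2 to 88.7 CPM, and SMCHD1, a repressor of clustered protocadherin genes, had 6.56 to 81.2 CPM. SMCHD1 varied between letters: it was 6.56 and 8.13 CPM in agoshRNA KD A and NTC A, and 78.5 and 55.3 CPM in KD B and NTC B. This was not particular to SMCHD1. In the same libraries PCDH9, a protocadherin gene outside the clusters, had 6.56 and 7.29 CPM in A and 114 and 77.8 CPM in B. CTCF differed less, with 57.1 and 65.1 CPM in A and 62.7 and 68.8 CPM in B. The KD difference of SMCHD1 was 0.27 (SE 0.97) in agoshRNA, -0.03 (SE 0.65) in gRNA, 0.24 (SE 0.72) in pre-gRNA and 0.19 (SE 0.17) in syn-gRNA. That of CTCF was -0.19 (SE 0.36), -0.13 (SE 0.30), 0.20 (SE 0.43) and -0.08 (SE 0.17). DESeq2 called 0 of the 25 regulators up and 0 down in the 4 KD comparisons and in the 12 comparisons between setups, and edgeR likewise. DESeq2 called from 0.0 to 3.25% of all tested genes in these comparisons, so few or no calls among 25 genes say little about the list.

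Of 17 signalling and cytoskeletal partners (among them FYN and the WAVE complex), 16 had a mean above 10 CPM and 0 were called up or down in those 16 comparisons, beside the same shares of 0.0 to 3.25% of all genes. Of 12 protocadherins outside the clusters, PCDH9, PCDH10 and PCDH7 had means of 71, 41.4 and 14.8 CPM and the others less than 10. PCDH8 had 7, 2 and 5 counts in agoshRNA KD and 16, 19 and 16 in syn-gRNA KD. Of the 10 tested there it was the 1 called, and none was called in the other comparisons; DESeq2 called 3.14% of all genes in that pair and edgeR 0.952%. It was lower in agoshRNA KD with a log2 difference of -1.96 (SE 0.56), for which DESeq2 gave an adjusted p of 0.0238 and edgeR 0.0498, which was not called in the fit of those 6 libraries alone (adjusted p 0.174). Without agoshRNA KD A, B or C, or without syn-gRNA KD B or C, its adjusted p in DESeq2 was 0.112, 0.0634, 0.0731, 0.127 and 0.134.

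Of 13 genes next to the clusters on chromosome 5, 12 were tested, and 1 was called, between pre-gRNA and syn-gRNA, where 3.25% of all genes were called in NTC and 2.52% in KD. HARS2, a mitochondrial histidyl-tRNA synthetase gene, had 32.3, 22.9 and 37.3 CPM in pre-gRNA NTC and 47.0, 50.7 and 54.2 CPM in syn-gRNA NTC. In NTC it was lower in pre-gRNA with a log2 difference of -0.77 (SE 0.19), and DESeq2 gave an adjusted p of 0.00553. In KD, with 31.1, 23.8 and 35.4 CPM in pre-gRNA and 51.2, 46.2 and 55.0 CPM in syn-gRNA, the difference was -0.84 (SE 0.19) and the adjusted p 0.00162. edgeR did not call either (adjusted p 0.0849 and 0.0651), nor did DESeq2 fits of the 6 libraries of each pair alone (0.0774 and 0.101). Without pre-gRNA NTC A, syn-gRNA NTC B or syn-gRNA NTC C the NTC difference had an adjusted p of 0.0772, 0.087 and 0.0983 in DESeq2, and without syn-gRNA KD C the KD difference had 0.0576. The shared gamma reads of the same libraries had fitted differences of the opposite sign, which did not pass the threshold.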

How the data were processed

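Per the submitters' processing notes, reads were trimmed with Trim Galore, aligned to hg19 with STAR 2.7.3a and counted with featureCounts; whether reads that overlap several genes were counted for each is not given in the sources used here. The 4 deposited tables held the same raw counts, which were used; the 24 columns of normalized values in each were not. The authors' log2 fold changes and their p-values and adjusted p-values come from DESeq2, per the series' design text. The deposited gene lengths were used for densities.

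Members and lists were chosen with earlier results of these data known. Genes that reached 10 counts in 3 or more libraries of a fit were tested with DESeq2 1.42.0 (R 4.3.3), per setup for KD against NTC and in 1 model of 24 libraries between setups, with Benjamini-Hochberg adjustment over all genes tested; edgeR 4.0.16 (quasi-likelihood, TMM) was an alternative. Fits were tested on simulated counts. Totals were compared as log2 of CPM plus 0.5 by exact permutation. Named were the C-type genes, the 4 members of each cluster with the highest mean CPM, listed genes that were called, CTCF and SMCHD1; other genes, such as PCDHGB5, were chosen after their values were seen. GENCODE release 29 gave exons and GC content for 93.2% of the genes.

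The column letters are not linked to the replicate numbers of the labels. In each of 12 same-letter pairs the deviations of KD and NTC from their group means correlated across 20172 genes (r from 0.279 to 0.946), so the letter was also fitted as a block.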

Additional observations from a re-analysis of the deposited data

Results flagged for a closer look

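The summed beta counts moved in opposite directions in different setups when libraries of the same letter were compared. The mean log2 difference of KD minus NTC was -0.60 in agoshRNA (-0.40, -0.48 and -0.92 in A, B and C) and -0.39 in gRNA (-0.51, -0.02 and -0.65). In pre-gRNA it was 0.43 (0.04, 1.06 and 0.19). The difference between setups was not tested for these sums. gRNA B had 13 counts in both arms and pre-gRNA A 27 and 28. The largest pre-gRNA difference, in B, rests on 10 against 5 counts. These values differ from those of the unpaired totals because they carry no added offset.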

How the results depend on the processing

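The count of family genes called stayed at 0 in 153 of 154 alternatives that kept all libraries and in 456 that left out 1 library, over 22 comparisons; the exception was 1 gene, PCDHGC3, between pre-gRNA and syn-gRNA NTC in the fit of that pair's 6 libraries alone. With the column letter as a replicate block, DESeq2 called 0 family genes in each KD comparison and each comparison of KD effects; paired by letter, the log2 difference of PCDHGC4 was -0.06, 0.51, 0.00 and -0.13; sign-flip tests of the 3 letter pairs cannot give an exact p below 0.25, so they bear on no call. Over all genes, edgeR made fewer calls than DESeq2 between pre-gRNA and syn-gRNA (149 against 656 in NTC, 183 against 508 in KD). The block was not run for NTC or KD groups between setups, where letters lie within a setup. Counting shared reads once was chosen after seeing the data: it gave 0 genes on in each library by own counts, against 22 as deposited, and 4 in at least 3 libraries, against 23, and turned the sign of the alpha total in agoshRNA (0.025) and the gamma total in syn-gRNA (0.016). With no filter on low counts as well, own counts gave 0.19 for PCDHGA11, 0.054 for PCDHGC4 and 0.079 for PCDHGC5 in agoshRNA and -0.00762 for PCDHGC4 in pre-gRNA, opposite in sign to the deposited counts; the cause was not tested. Every such difference was far from the threshold.

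Leaving out each library in turn gave these ranges of the KD difference, with agoshRNA first, then gRNA, pre-gRNA and last syn-gRNA, all for counts as deposited. The alpha totals ran from -0.36 to 0.33, -0.35 to 0.29, -0.72 to 0.50 and -0.73 to -0.16, the beta totals from -0.56 to -0.28, -0.43 to -0.15, -0.22 to 0.53 and -0.21 to 0.22, and the gamma totals from -0.76 to 0.44, -0.045 to 0.50, -0.10 to 0.22 and -0.24 to -0.05. PCDHGA11 ran from -0.92 to 0.62, -0.090 to 0.60, -0.13 to 0.15 and -0.14 to 0.19, PCDHGC4 from -0.78 to 0.68, 0.16 to 0.70, -0.092 to 0.18 and -0.33 to 0.038, and PCDHGC5 from -0.81 to 0.62, -0.043 to 0.66, -0.087 to 0.18 and -0.29 to -0.06. PCDHA10 ran from -0.13 to 0.77 in gRNA, and between pre-gRNA and syn-gRNA from -0.34 to 0.56 in NTC and -0.21 to 1.48 in KD. Between those setups PCDHGC3 stayed between 1.02 and 1.27 in NTC and between 1.00 and 1.34 in KD. Depth limits own counts: the largest in any library was 34.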
